A study of Rattus norvegicus with 8 samples.

Results

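Schwann cells and satellite glia are the supporting cells of the sensory ganglion, and 32 rat genes that mark them or build their membranes were followed here across cultures given 3 forms of one human protein. The members are a chosen list of 20 Schwann cell and myelin genes and 12 satellite glia genes, out of 15154 genes that could be named on the array by RefSeq accession. Cells were dissociated from dorsal root ganglia of Wistar rats aged 0 to 5 days, from both sexes pooled, and were kept in serum-free medium with fluorodeoxyuridine, an agent that limits dividing cells. After 2 to 3 days in vitro the cultures received the protein at 100 ng/ml for 5 days, and their RNA was then hybridised to 1-colour Agilent arrays. The groups were the P61S/R100E double mutant (3 arrays), the P61S single mutant (3 arrays) and the wild type protein (2 arrays), and all 3 groups share the rat strain, medium, dose and time. There was no culture without the protein, so each comparison sets one form against another. The labels do not say whether replicates were separate cultures or animals, so p-values measure only the spread between these samples, which may be technical.

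Schwann cells wrap peripheral axons, and the myelinating ones compact their membrane into myelin with adhesive proteins, a basic cytoplasmic protein and long-chain galactolipids. Satellite glia lie around the cell bodies of sensory neurons, take up glutamate and potassium, and are joined to each other by gap junctions. Both descend from the neural crest and depend on the transcription factor Sox10, and both lose or gain part of their gene programme when axons are injured or when cells are taken into culture.

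The arrays had 75th percentile signals between 3267 and 5269 scanner units, with 78.7% to 88.8% of spots well above background and 0 saturated spots. Over 4642 bright probes with duplicate spots, P61S replicates 1 and 3 differed by less than the spread between spots of a single array. The robust SD of their log2 difference was 0.0433, which is 0.806 of what the spots alone give. The other 27 pairs of arrays had SDs of 0.114 to 0.241, from 2.14 to 4.02 times the spot spread. Over all probes, P61S replicates 1 and 3 correlated at 0.987, below the 0.992 of P61S replicate 1 with wild type replicate 1. P61S replicates 1 and 3 had 85.9% and 78.7% of spots well above background. On the evidence of the bright probes alone, these 2 arrays were averaged on all probes and counted as 1 sample. That leaves P61S/R100E n = 3, P61S n = 2 and wild type n = 2. Wild type replicate 1 lay nearer to the 6 mutant arrays (SD 0.114 to 0.164) than to wild type replicate 2 (SD 0.212). All 8 arrays were on 1 slide, and both wild type arrays filled a slide column of their own, so column and protein cannot be told apart in comparisons with wild type.

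**Figure D1:**
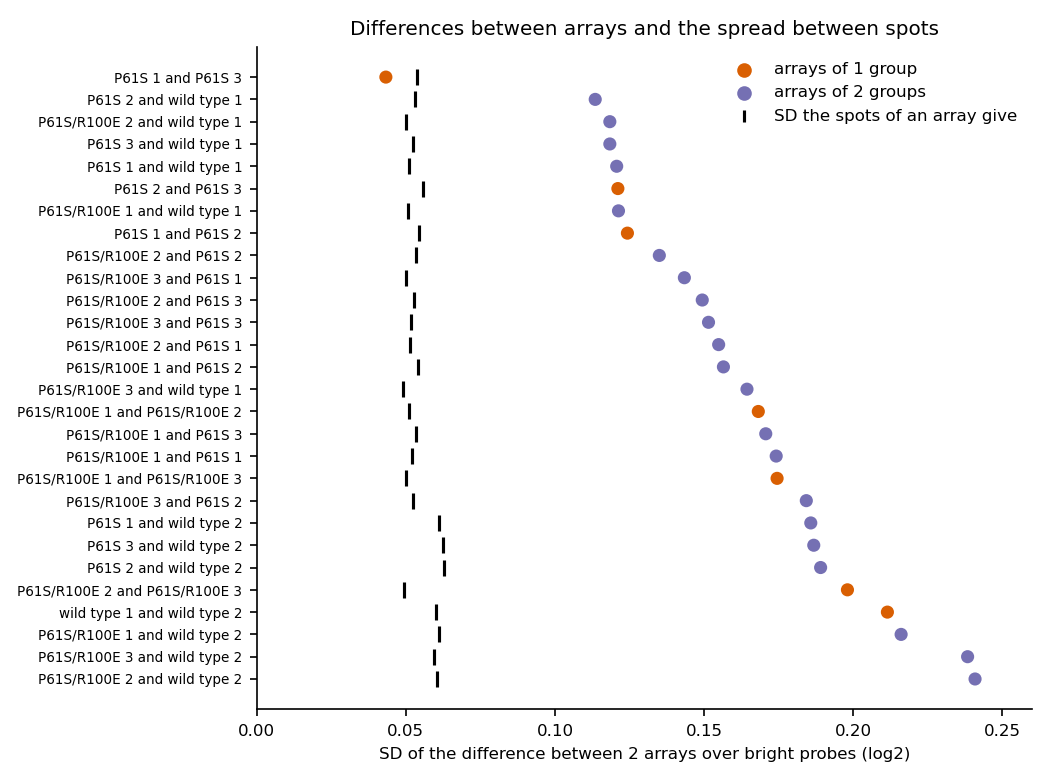
Robust SD of the log2 difference between 2 arrays over bright probes (points, x axis, in log2 units) for each of the 28 pairs of arrays (rows), with the SD that the spots of an array give (ticks). P61S replicates 1 and 3 sit at 0.0433, left of their tick, and the other 27 pairs sit at 0.114 or more.

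Probes for 31 of the 32 members were found, and Ncmap, which encodes a Schwann cell myelin protein, had none. Of the members, 29 were well above background on all 8 arrays, and Drp2 on 7. Of all 30367 probes, 21657 were well above background on all 8 arrays. A member was read from its brightest probe, so these counts are not of like units. Slc1a2, a glutamate transporter, was not well above background on every array of any group and was not tested, which left 30 members. Each value below is the log2 signal of the member's brightest probe relative to the 75th percentile of its array, and a difference is a difference of 2 group means on that scale. Signals of different probes cannot be set against each other, so levels are compared only between arrays.

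No member passed the test in any of the 3 comparisons. With limma's moderated test and Benjamini-Hochberg adjustment over 23585 probes at 0.05, 0 of 30 members and 0 probes (0%) were called in P61S/R100E against P61S, in P61S/R100E against wild type and in P61S against wild type. At an unadjusted p under 0.05, 1 member, Pmp2, was past the threshold in P61S/R100E against P61S, where 582 probes (2.47%) were. Pmp2 was again the 1 member past it in P61S/R100E against wild type, where 833 probes (3.53%) were. In P61S against wild type it was Bcan, and 259 probes (1.1%) were past it.

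The glial genes as a group did not lie to one side. In P61S/R100E against P61S, 15 of 30 members had a positive difference and 15 a negative one, with a median of -0.00, while 39.9% of all probes lay above 0 with a median of -0.04. In P61S/R100E against wild type, 16 were positive and 14 negative, with a median of 0.00, while 37.6% of all probes lay above 0 with a median of -0.06. In P61S against wild type, 13 were positive and 17 negative, with a median of -0.04, while 42.3% of all probes lay above 0 with a median of -0.03. The differences of single members ran from -0.41 to 0.38 for P61S/R100E against P61S, from -0.41 to 0.25 against wild type and from -0.32 to 0.39 for P61S against wild type. The 95% intervals lay inside a 2-fold difference in either direction for 27, 28 and 27 of the 30 members in the same order. For the other members, a 2-fold difference was within the interval.

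**Figure D2:**
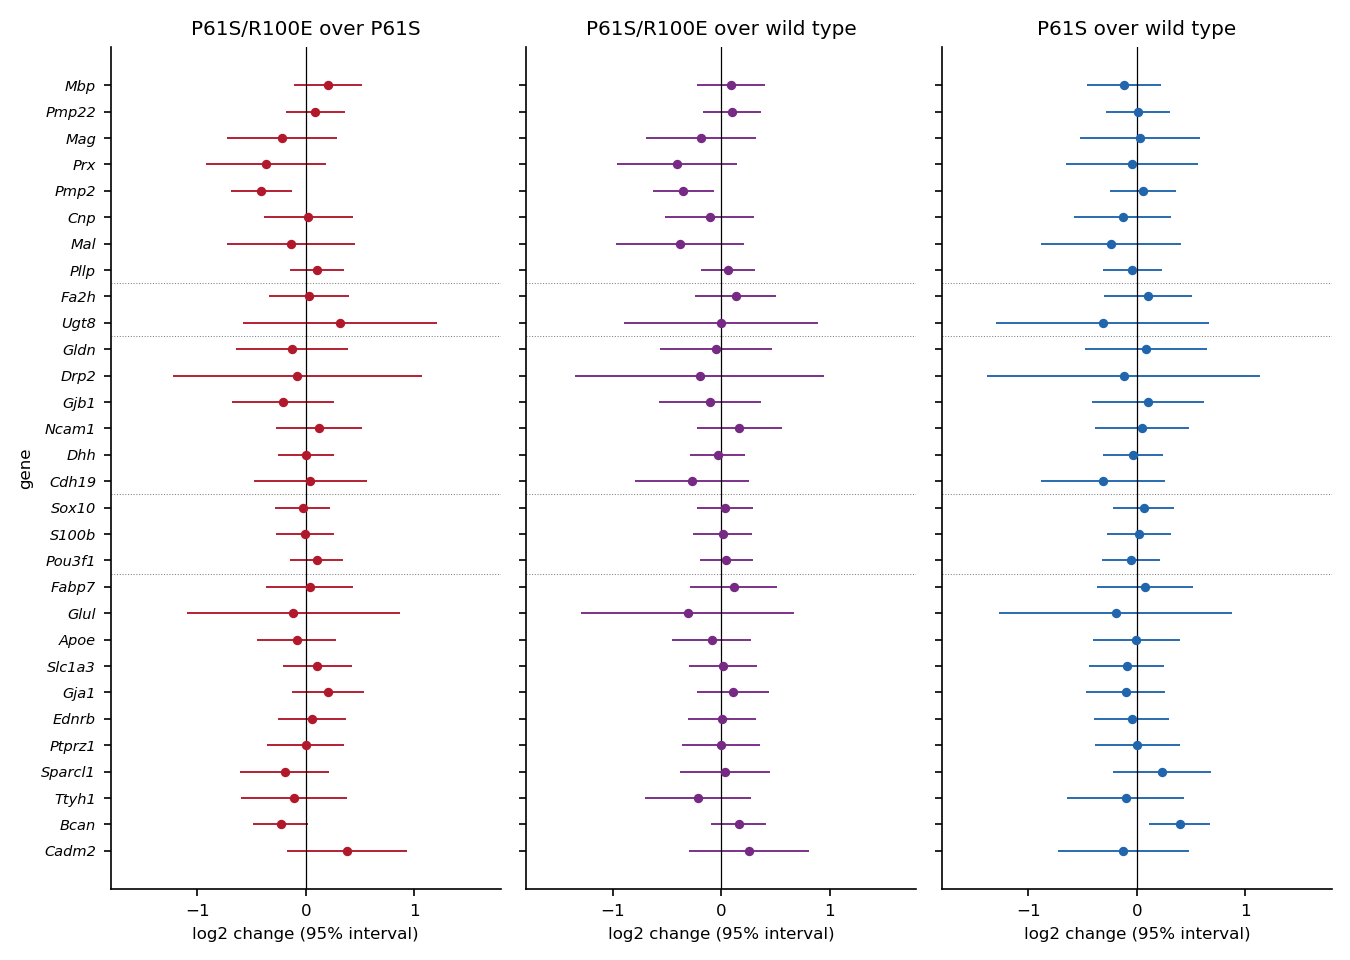
Log2 difference of each tested glial gene (points, with 95% intervals from limma) in P61S/R100E over P61S, P61S/R100E over wild type and P61S over wild type, ordered by role (dotted lines). Only the intervals of Pmp2 (left and middle panels) and Bcan (right-hand panel) lie wholly to one side of 0, and no gene passed the adjusted test.

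Myelin membrane proteins came first among the roles, with 9 members and 8 tested. Pmp2, a fatty acid binding protein of the peripheral myelin sheath, was the most separated of them. It had log2 signals of 2.63, 2.76 and 2.49 in P61S/R100E cultures, against 2.99, 3.05 and 3.05 in P61S cultures and 2.96 and 2.99 in wild type cultures. All 3 P61S/R100E arrays lay below all 5 others. P61S/R100E averaged 2.62 ± 0.13 (SD, n = 3), against 3.03 ± 0.02 in P61S (n = 2) and 2.98 ± 0.02 in wild type (n = 2). The difference was -0.41 (SE 0.12) from P61S, or 1.33-fold lower, with limma unadjusted p = 0.012 and adjusted p = 1.00. From wild type it was -0.35 (SE 0.12), or 1.28-fold lower, with limma unadjusted p = 0.022 and adjusted p = 0.859. P61S and wild type differed by 0.06.

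A second Pmp2 probe gave the same order of groups. Its log2 signals were -0.13, -0.11 and -0.43 in P61S/R100E, against 0.26, 0.25 and 0.24 in P61S and 0.30 and 0.45 in wild type. Again no P61S/R100E array reached any array of the other groups. Its difference was -0.47 from P61S (limma unadjusted p = 0.013, adjusted p = 1.00) and -0.60 from wild type (limma unadjusted p = 0.0044, adjusted p = 0.859). Within slide row 1 the first probe was -0.39 from P61S and -0.33 from wild type, and within row 2 it was -0.43 and -0.37. Of P61S/R100E, row 1 held only replicate 1, and of P61S, row 2 held only replicate 3. Each row held a single wild type array. P61S replicates 1 and 3, counted here as 1 sample, lay in different rows, so the rows are not independent. Slide column 2 is the only column that holds both mutants, and there P61S/R100E replicate 2 was -0.29 from P61S replicate 2, 1 array against 1. Leaving out 1 array at a time moved it between -0.47 and -0.34 against P61S and between -0.42 and -0.28 against wild type. The members whose arrays did not overlap between P61S/R100E and P61S were Pmp2 (lower, as were 8.23% of all probes) and Pllp and Pou3f1 (higher, as were 5.75%), or 3 of 30 beside 14% of all probes in either direction.

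**Figure D3:**
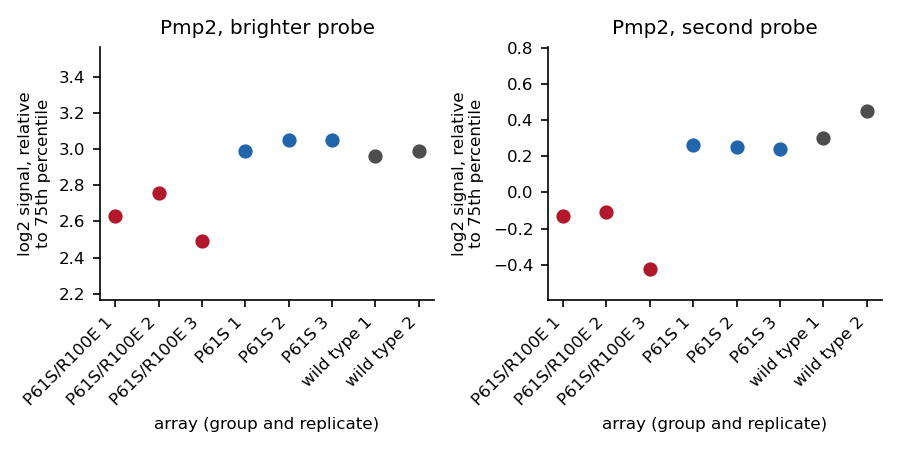
Log2 signals of both Pmp2 probes, relative to the 75th percentile of the array (y axis), on each of the 8 arrays (x axis). The 3 P61S/R100E arrays lie below the 3 P61S and 2 wild type arrays on both probes, from 2.49 to 2.76 against 2.96 to 3.05 on the brighter one.

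Mbp, the basic protein that joins the cytoplasmic faces of compact myelin, did not separate clearly. It had log2 signals of 4.90, 4.67 and 4.97 in P61S/R100E, against 4.54, 4.71 and 4.60 in P61S and 4.73 and 4.78 in wild type. P61S/R100E replicate 2 lay inside the P61S range. The difference was 0.21 (SE 0.13, limma adjusted p = 1.00) from P61S, 0.09 from wild type, and -0.12 for P61S against wild type. The second Mbp probe gave 0.30, -0.01 and -0.31, with P61S/R100E arrays all above P61S arrays and P61S arrays all below wild type arrays. In slide column 2, 1 array against 1, the first probe's difference from P61S was -0.04. Pmp22, a tetraspan protein of compact myelin whose dosage is altered in inherited neuropathy, had 5.03, 4.93 and 5.10 in P61S/R100E, against 4.92, 4.99 and 4.83 in P61S and 4.98 and 4.86 in wild type. The groups overlapped, with differences of 0.09, 0.10 and 0.01 in the 3 comparisons and limma adjusted p of 1.00, 0.880 and 1.00.

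Prx, a scaffold of the Schwann cell membrane facing the basal lamina, was lowest on P61S/R100E replicate 3 and highest on wild type replicate 2. Its log2 signals were -2.79, -2.97 and -3.28 in P61S/R100E, against -2.73, -2.53 and -2.80 in P61S and -2.89 and -2.31 in wild type. The groups overlapped, with differences of -0.36 (SE 0.23) from P61S and -0.41 (SE 0.23) from wild type, and limma adjusted p of 1.00 and 0.859. The difference from wild type was -0.70 without wild type replicate 1 and -0.12 without wild type replicate 2, and that from P61S was -0.23 without P61S/R100E replicate 3. Mal, a raft proteolipid of myelin, had -2.73, -3.39 and -3.36 in P61S/R100E, against -3.01, -3.04 and -2.99 in P61S and -2.99 and -2.57 in wild type. P61S/R100E replicate 1 lay above all P61S arrays and the other two below them. Its difference from wild type was -0.38 (SE 0.24, limma adjusted p = 0.859), and that of P61S from wild type was -0.24 (SE 0.27, limma adjusted p = 1.00). They were -0.59 and -0.45 without wild type replicate 1, and -0.17 and -0.03 without wild type replicate 2. Without P61S/R100E replicate 1 the difference of P61S/R100E from wild type was -0.59.

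Mag, an adhesion molecule of the membrane next to the axon, depended on the probe. Its brightest probe was 0.93, 0.32 and 0.91 in P61S/R100E, against 0.95, 0.95 and 0.91 in P61S and 1.00 and 0.82 in wild type, a difference of -0.22 from P61S in which P61S/R100E replicate 2 alone lay apart. The second Mag probe ran the other way, at -2.06, -2.08 and -2.18 in P61S/R100E, against -2.37, -2.44 and -2.45 in P61S and -2.15 and -2.58 in wild type, a difference of 0.32 from P61S (limma adjusted p = 1.00). Cnp, an enzyme that keeps cytoplasmic channels open in myelin, differed by 0.02 between P61S/R100E and P61S and by -0.13 between P61S and wild type. Pllp, a tetraspan myelin proteolipid, differed by 0.10 between P61S/R100E and P61S, with all 3 P61S/R100E arrays above the P61S arrays.

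Sequence that the choice of members did not use was looked at in the promoter windows that RefSeq gives on build GRCr8, from 250 bases before to 50 bases after a gene's start. Windows were found for 27 of the 32 members. The core letters of sites that bind SOX proteins, ACAAAG and ACAATG on either strand, were searched because Sox10 is a member and a regulator of myelin genes. A match was found in 4 of the 27 members (14.8%), against 30.2% of 27457 genes with such a window. The members with a match were Cnp, Mag, Mbp and Slc1a3. A match here describes letters only. The windows of Cnp and Mag are shown 5′ to 3′ on the strand of the gene, with the match in capitals, to let both orientations be read. The Cnp window is chr10:86011254-86011553, plus strand, and the Mag window is chr1:95290995-95291294, minus strand.
Cnp: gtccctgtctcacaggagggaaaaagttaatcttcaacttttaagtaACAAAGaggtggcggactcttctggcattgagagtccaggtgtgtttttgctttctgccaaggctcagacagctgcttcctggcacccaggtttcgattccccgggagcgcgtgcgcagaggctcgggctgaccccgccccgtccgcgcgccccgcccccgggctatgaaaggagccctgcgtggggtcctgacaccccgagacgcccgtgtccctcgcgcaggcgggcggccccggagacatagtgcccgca
Mag: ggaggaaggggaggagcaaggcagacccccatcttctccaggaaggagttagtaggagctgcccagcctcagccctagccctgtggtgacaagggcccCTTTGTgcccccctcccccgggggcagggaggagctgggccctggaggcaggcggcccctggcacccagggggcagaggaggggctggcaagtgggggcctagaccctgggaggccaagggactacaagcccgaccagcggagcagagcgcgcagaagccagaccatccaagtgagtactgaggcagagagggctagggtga

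Both enzymes of myelin lipid synthesis were tested. Fa2h hydroxylates the fatty acids of myelin galactolipids and had differences of 0.03, 0.13 and 0.10 in P61S/R100E against P61S, P61S/R100E against wild type and P61S against wild type. A second, much weaker Fa2h probe ran the other way, at -0.35, -1.18 and -0.82. On that probe wild type replicates 1 and 2 stood far apart, at -7.34 and -5.50. Ugt8 makes galactosylceramide, and its arrays spread widely within every group. It had -2.46, -3.13 and -1.99 in P61S/R100E, against -2.64, -3.02 and -2.68 in P61S and -2.84 and -2.20 in wild type. The P61S/R100E arrays took in the whole range of the other groups, and the differences were 0.31, -0.00 and -0.32 with SEs of 0.37, 0.37 and 0.40.

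The 6 contact, signal and junction proteins were all tested. Dhh, the hedgehog ligand that Schwann cells send to the perineurium, was among the steadiest on its brightest probe. That probe had 1.44, 1.47 and 1.59 in P61S/R100E, against 1.55, 1.47 and 1.50 in P61S and 1.58 and 1.48 in wild type. Its differences were 0.00, -0.03 and -0.04, all with overlapping arrays. A second Dhh probe varied more, at -0.76, -1.10 and -0.44 in P61S/R100E and -0.85 and -0.36 in wild type. In P61S it had -0.71, -0.72 and -0.69, and the differences were -0.06, -0.16 and -0.11, again with overlapping arrays. Cdh19, a cadherin of Schwann cell precursors, had -3.34, -3.22 and -3.88 in P61S/R100E, against -3.55, -3.50 and -3.55 in P61S and -3.33 and -3.09 in wild type. All 3 P61S arrays lay below both wild type arrays, with a difference of -0.31 (SE 0.23, limma adjusted p = 1.00), and of -0.19 without wild type replicate 2. Gldn, which gathers sodium channels at nodes, Gjb1, the connexin of non-compact myelin, and Ncam1, an adhesion molecule of non-myelinating Schwann cells, had differences between -0.21 and 0.17. Drp2, a dystrophin-related partner of periaxin, had the largest within-group SD of the 30 members, 0.626, and its intervals reached past a 2-fold difference in both directions for P61S/R100E against P61S and for P61S against wild type, and in the lower direction for P61S/R100E against wild type.

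Lineage markers were nearly level. Sox10 had 3.58, 3.72 and 3.70 in P61S/R100E, against 3.62, 3.75 and 3.65 in P61S and 3.60 and 3.67 in wild type. All 8 arrays lay within a narrow band, and the differences were -0.03, 0.03 and 0.06 (limma adjusted p = 1.00, 0.958 and 1.00). S100b, a calcium-binding protein used as a glial marker, had 3.20, 3.28 and 3.42 in P61S/R100E, against 3.35, 3.27 and 3.35 in P61S and 3.30 and 3.29 in wild type. Its differences were -0.01, 0.01 and 0.02 (limma adjusted p = 1.00, 0.989 and 1.00). Pou3f1, the transcription factor of promyelinating Schwann cells, had the smallest within-group SD of the 30, 0.056. It had -0.31, -0.46 and -0.40 in P61S/R100E, against -0.47, -0.51 and -0.46 in P61S and -0.42 and -0.45 in wild type. Every P61S/R100E array lay above every P61S array, by a mean of 0.10 (SE 0.10, limma adjusted p = 1.00). These cultures are mixtures, and in bulk RNA fewer cells of a type and less RNA per cell cannot be told apart.

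**Figure D4:**
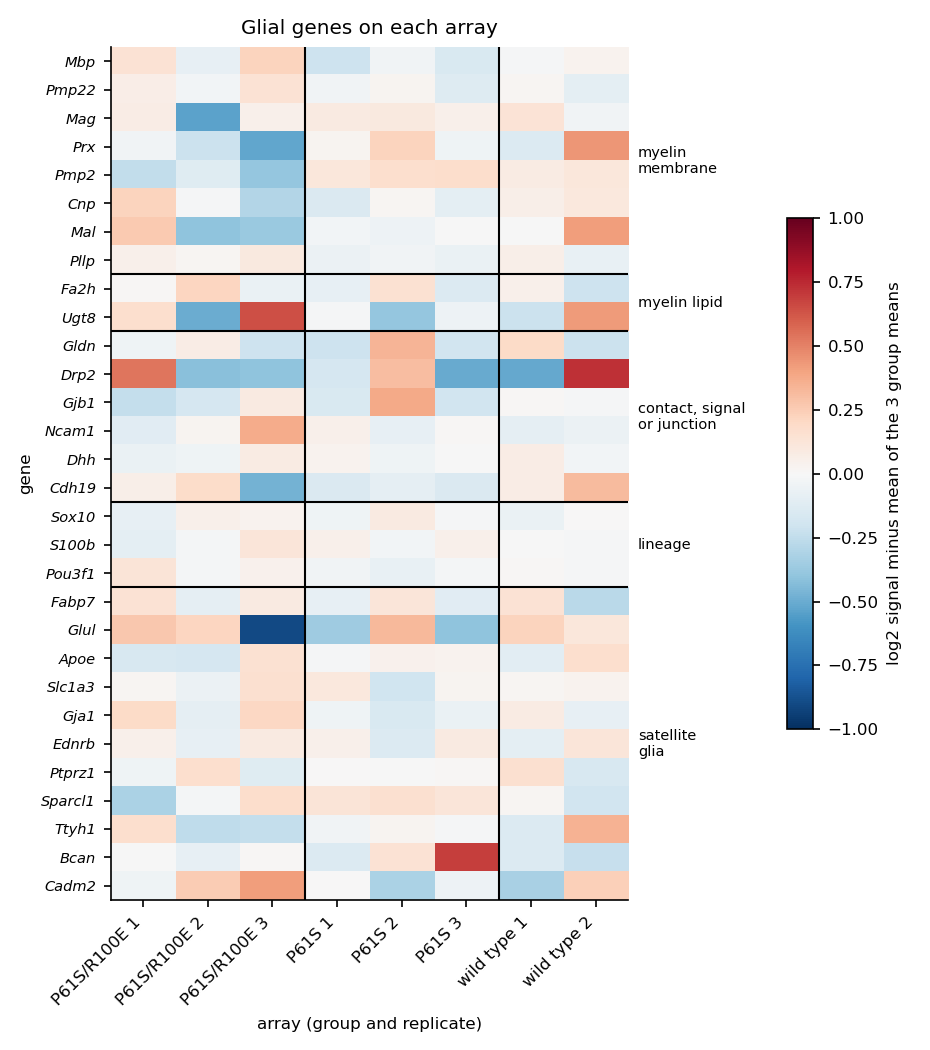
Log2 signal of the 30 tested glial genes (rows, grouped by role) on the 8 arrays (columns), as the deviation from the mean of the 3 group means (colour, log2 units). No array is high or low throughout, and the deepest values are single genes on single arrays, such as Glul on P61S/R100E replicate 3 and Bcan on P61S replicate 3.

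Satellite glia genes numbered 12, with 11 tested. Fabp7, a brain-type lipid binding protein of satellite glia and immature Schwann cells, had -0.47, -0.70 and -0.52 in P61S/R100E, against -0.70, -0.49 and -0.73 in P61S and -0.47 and -0.89 in wild type. The groups overlapped, with differences of 0.04, 0.11 and 0.08 (limma adjusted p = 1.00, 0.904 and 1.00). Apoe, a lipid carrier that glia secrete, had 5.11, 5.10 and 5.42 in P61S/R100E, against 5.26, 5.31 and 5.30 in P61S and 5.16 and 5.44 in wild type. The P61S arrays lay inside the range of the other groups, with differences of -0.08, -0.09 and -0.00 (limma adjusted p = 1.00, 0.914 and 1.00).

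Glul, glutamine synthetase, which turns the glutamate taken up by glia into glutamine, varied widely within groups. It had 0.34, 0.29 and -0.83 in P61S/R100E, against -0.28, 0.40 and -0.33 in P61S and 0.30 and 0.19 in wild type. The low values were those of P61S/R100E replicate 3 and P61S replicates 1 and 3, and the differences of -0.11, -0.31 and -0.20 had SEs of 0.40, 0.40 and 0.44. Slc1a3, a glial glutamate transporter, lay between -2.33 and -1.97 on all arrays, with differences of 0.11, 0.01 and -0.10. Untested Slc1a2 averaged -7.25 in P61S/R100E, -7.61 in P61S and -7.71 in wild type, and was well above background on 5 of the 8 arrays.

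Bcan, a proteoglycan of the glial matrix, was the member past the unadjusted threshold in P61S against wild type, and 1 array carried it. It had -3.93, -4.01 and -3.91 in P61S/R100E, against -4.06, -3.78 and -3.23 in P61S and -4.06 and -4.16 in wild type. P61S replicates 1 and 3, which agreed to a median of 0.04 over the members, stood 0.83 apart here, the largest gap of any member, and the probe had a single spot. The difference of P61S from wild type was 0.39 (SE 0.11, limma unadjusted p = 0.013, adjusted p = 1.00), but 0.19 without P61S replicate 3 and 0.60 without P61S replicate 1. A second, much weaker Bcan probe gave 0.14 (SE 0.44), with signals between -8.67 and -7.12 and wild type arrays at -7.29 and -8.32. On the brightest probe, P61S/R100E differed from P61S by -0.23 and from wild type by 0.16 (limma adjusted p = 1.00 and 0.859), and its arrays lay above both wild type arrays.

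Cadm2, a synaptic-type adhesion molecule, had -3.61, -3.31 and -3.14 in P61S/R100E, against -3.56, -3.87 and -3.61 in P61S and -3.89 and -3.32 in wild type. The groups overlapped, with a difference of 0.38 (SE 0.23, limma adjusted p = 1.00) from P61S, and of 0.23 without P61S replicate 2. Sparcl1, a matricellular protein of glia, had -3.12, -2.82 and -2.62 in P61S/R100E, against -2.67, -2.64 and -2.68 in P61S and -2.78 and -3.00 in wild type. All P61S arrays lay above both wild type arrays, with a difference of 0.23 (SE 0.19, limma adjusted p = 1.00), and of 0.13 without wild type replicate 2. Gja1, the main connexin of satellite glia, differed by 0.21, 0.11 and -0.10, and Ttyh1, a chloride channel family protein, by -0.11, -0.21 and -0.10. Ednrb, the endothelin B receptor, and Ptprz1, a receptor phosphatase, stayed within 0.06 of 0 in all 3 comparisons.

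Members whose arrays did not overlap were also counted in P61S/R100E against wild type, where 2 of 30 members stood beside 15.1% of probes. Pmp2 was lower, as were 9.2% of probes, and Bcan higher, as were 5.86%. In P61S against wild type, 6 of 30 members did not overlap, beside 16.6% of probes. Sparcl1 was higher, as were 7.39% of probes. Mbp, Cnp, Mal, Cdh19 and Pou3f1 were lower, as were 9.23% of probes. All of them are Schwann cell or myelin genes, as are 19 of the 30 tested members. Of the 13 other myelin and node genes tested, 0 were lower and 1 was higher. The differences of the 6 members lay between -0.31 and 0.23. Over the 30 members the within-group SD ran from 0.056 to 0.626 with a median of 0.173, against median absolute differences of 0.11, 0.11 and 0.09 in the 3 comparisons.

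**Figure D5:**
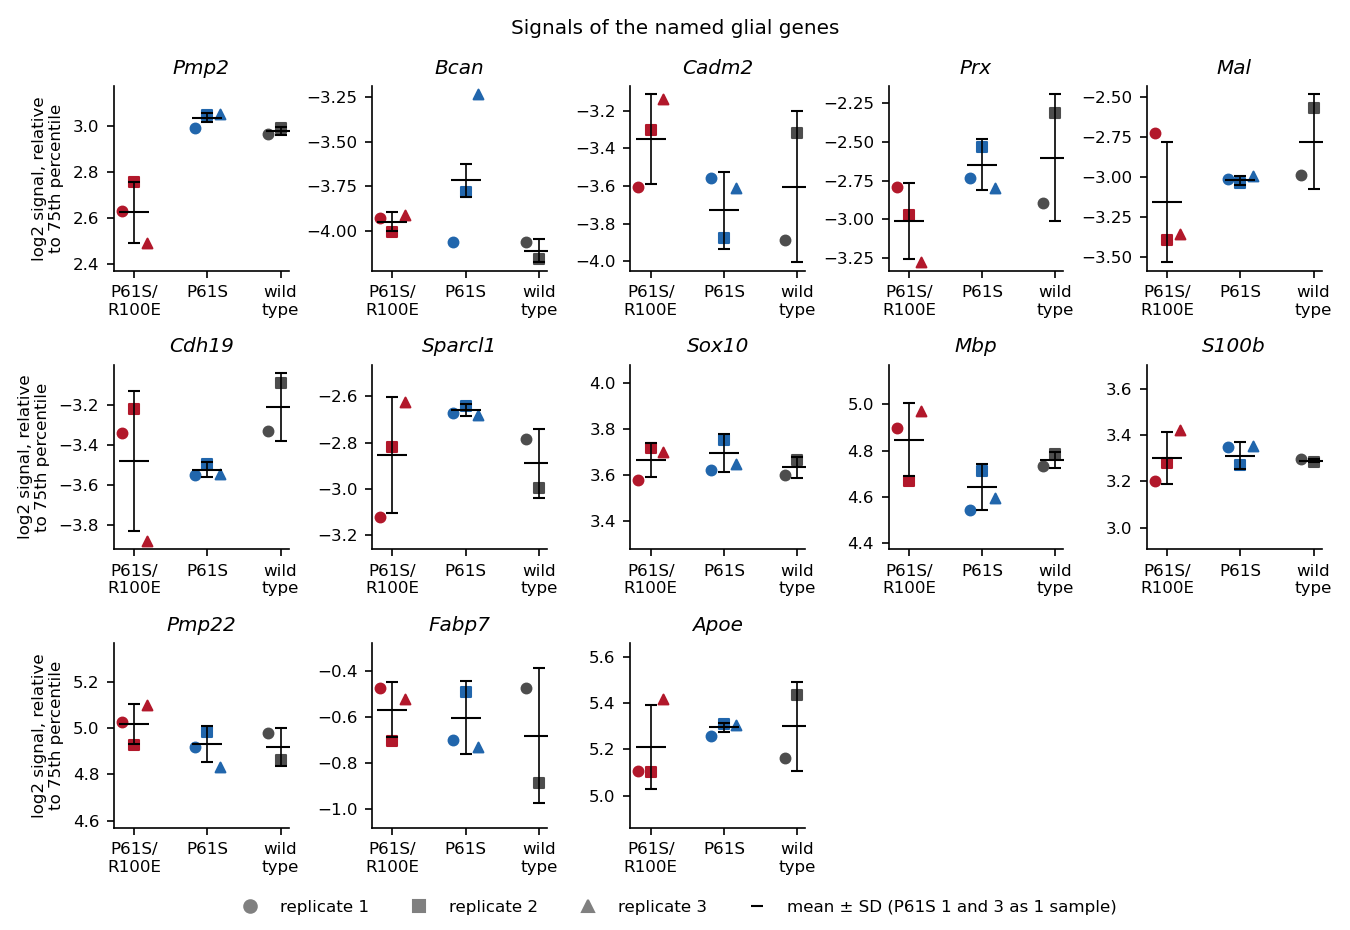
Log2 signals relative to the 75th percentile of the array (y axis) for 13 glial genes, those with the smallest p and 6 markers, by group, with 1 symbol per array and the mean ± SD (P61S replicates 1 and 3 as 1 sample). The P61S/R100E points lie apart from both other groups for Pmp2 and overlap at least 1 other group for the rest.

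Other genes of the same cells were read from lists chosen beside the members, and 0 of 89 tested genes in 10 lists passed the adjusted test in any comparison. Of other myelin and node genes, 13 of 20 were tested, with 5 positive and 8 negative differences in P61S/R100E against P61S and a median of -0.09. Gpr37, an orphan receptor of myelinating glia, was 0.31 from P61S and 0.27 from wild type (limma unadjusted p = 0.019 and 0.031, adjusted p = 1.00 and 0.859). Of other satellite glia genes, 15 of 16 were tested, with 7 positive and 8 negative and a median of -0.04. Among 16 tested genes of repair Schwann cells, the state taken up after axon loss, Btc, an EGF family ligand, was 0.61 from P61S and 0.37 from wild type (limma unadjusted p = 0.003 and 0.029, adjusted p = 1.00 and 0.859). In glial growth factor signalling, with 12 tested, Nrg1, the axonal ligand that drives Schwann cell growth and myelination, was -0.69 from wild type (limma unadjusted p = 0.018, adjusted p = 0.859). Its wild type arrays stood apart, at -2.81 and -2.16, and the first was level with P61S, at -2.82, -2.74 and -2.83. P61S/R100E had -3.00, -3.19 and -3.34, a difference of -0.40 from P61S.

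Markers of other cells that the cultures could hold were read beside the glial genes. The 9 tested neuron markers had a median difference of -0.02 between P61S/R100E and P61S, with Tubb3 at 0.33 (limma unadjusted p = 0.015, adjusted p = 1.00). In P61S/R100E, all 6 fibroblast markers were positive against P61S, with a median of 0.11, and 3 of 6 were positive against wild type. All 4 tested dividing cell markers were positive against P61S, with a median of 0.13, and 2 of 4 against wild type, with a median of 0.03. P61S replicate 2 was the lowest array for all 4, with a median deviation of -0.26 from the mean of the 3 group means. P61S replicates 1 and 3 lay at 0.12 and 0.10, above P61S/R100E replicates 1 to 3 at 0.03, -0.05 and 0.08. Of 6 macrophage markers 3 were positive against P61S and 3 against wild type, with medians of 0.01 and 0.01. The 6 oligodendrocyte markers, tested as a check on myelin genes of central origin, included 5 negative differences against P61S and 5 against wild type. The medians were -0.24 and -0.36. Their median deviation from the mean of the 3 group means was -0.09 on wild type replicate 1 and 0.25 on replicate 2. Wild type replicate 2 was the highest array for 3 of the 6. Mog, a central myelin protein, was -0.30 and -0.37 against P61S and wild type (limma unadjusted p = 0.034 and 0.016, adjusted p = 1.00 and 0.859). Olig2, a transcription factor of that lineage, went the other way, at 0.41 and 0.44, with all P61S/R100E arrays above those of both other groups (limma adjusted p = 1.00 and 0.859). Of 6 melanocyte markers 2 were tested, and both were negative against wild type, with a median of -0.38. Both were highest on wild type replicate 2. Mitf was -0.85 on wild type replicate 1 and -0.22 on wild type replicate 2, against a P61S/R100E mean of -0.77. Tyrp1, a pigment enzyme, was -0.53 from wild type (limma unadjusted p = 0.020, adjusted p = 0.859), with all P61S/R100E arrays below both wild type arrays, and its second probe was -0.73 from wild type (limma unadjusted p = 0.0068, adjusted p = 0.859). The part of these other cells in the glial values was not tested.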

How the data were processed

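The authors deposited 8 scanner exports from Agilent Feature Extraction 10.7.3.1 (protocol GE1_107_Sep09), and their processed signal is an intensity that is background-subtracted, per the file headers. The authors' deposited log2 values of the same arrays served as an alternative. Log2 signals were computed here minus the array's log2 75th percentile, and spots of a probe were averaged without outlier-flagged ones. Tested were the 23585 of 30367 probes for which some group had all its arrays well above background. Genes were named by RefSeq accession, and the brightest tested probe stood for each.

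One limma fit (limma 3.58.1, R 4.3.3) of 3 group means gave all p-values, with Benjamini-Hochberg adjustment over all probes. It was planned on 8 arrays. P61S replicates 1 and 3 were found to agree within spot noise on bright probes and were averaged. So 7 samples entered, leaving 4 residual degrees of freedom (2.10 prior), and the fit of 8 arrays became an alternative. The number of arrays limits the precision. The fit was tested on simulated data. The normexp alternative used the median signal, as the exports used here hold no mean signal column. Python 3.11.15 with pandas 2.3.3 and matplotlib 3.10.9 made the summaries and plots.

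The members and all lists were chosen with earlier results of these data known. Full values are given for the 4 members with the smallest p in each comparison and for Sox10, Mbp, S100b, Pmp22, Fabp7 and Apoe, and other members by role. Of the other lists, genes past an unadjusted p of 0.05 are named among the 2 with the smallest p in each comparison, and Olig2, chosen after its values were seen. Replicate numbers did not pair the samples (correlations of -0.20 to 0.10). Some items are not reported here.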

Additional observations from a re-analysis of the deposited data

How the results depend on the processing

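No glial gene passed the adjusted test under any alternative run, and Pmp2 kept its negative difference in P61S/R100E in all of them. With 8 arrays kept separate, limma gave Pmp2 -0.40 (adjusted p = 0.654) against P61S. The replicate block gave -0.40 against P61S and -0.32 against wild type (limma adjusted p = 1.00 and 0.903), and it changed no call. Probes called in P61S/R100E against wild type numbered 1 with quantile normalization, 1 with median centring and 1 at an adjusted p under 0.10, and in P61S against wild type 1 with quantile normalization and 1 with median centring. Leaving out 1 array moved these counts between 0 and 94 and between 0 and 70, with 94 and 70 reached without wild type replicate 1 and 7 in both without wild type replicate 2. Wild type is then 1 array, assumed to vary like the mutant arrays that alone supply the spread. The cause was not tested. The members' median against P61S was -0.051 once the slide column was a covariate, which leaves 1 array against 1 in column 2, and between -0.0099 and 0.067 without 1 array, and with median centring it was 0.083 for P61S/R100E and 0.011 for P61S against wild type. Differences near 0 changed sign. With that slide column pair, against P61S, Mbp was -0.043, Pmp22 -0.059, Fabp7 -0.21 and S100b 0.0097. S100b against P61S was 0.0052 with normexp, 0.0026 with quantile normalization and 0.019 with median centring. S100b in P61S/R100E against wild type was -0.053 with normexp, -0.026 with the replicate block, -3.3e-05 with the slide row block and -0.033 as the mean of its probes, and in P61S against wild type -0.058 with normexp, -0.0026 with the replicate block and -0.0063 as the mean of its probes. In P61S against wild type, Pmp22 was -0.0084 with 8 arrays, -0.0090 with the replicate block and -0.022 with the slide row block, and Apoe was 0.024 with quantile normalization, 0.045 with median centring and 0.014 with the slide row block. Without 1 array, against P61S, Sox10 ran from -0.055 to 0.029, S100b from -0.070 to 0.040 and Fabp7 from -0.011 to 0.15. In P61S/R100E against wild type S100b ran from -0.049 to 0.061, Fabp7 from -0.095 to 0.32 and Apoe from -0.23 to 0.047, and in P61S against wild type Pmp22 ran from -0.048 to 0.068, Fabp7 from -0.13 to 0.28 and Apoe from -0.14 to 0.13.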
